A study of Mus musculus with 14 samples.

Results

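Biliary and liver progenitor markers were examined as a set of 9 listed genes out of 21887 protein-coding genes. They were the transcription factor genes Sox9, Onecut1 and Onecut2, the genes of the secreted proteins Spp1 and Clu, the membrane protein genes Epcam, Prom1 and Tm4sf4, and Anxa2, which encodes a membrane-binding annexin. Each was taken with its annotated body and 5 kb on each side on mm10, and all 9 had H3K4me2 in both genotypes, as had 64.1% of protein-coding genes. The comparison asks whether H3K4 methylation and LSD1 are listed differently when YAP is expressed. It set YAP livers, from mice with an inducible YAP transgene on C57BL/6, against WT livers, from wild-type C57BL/6 mice. The treatment label, doxycycline at 50 mg/L in drinking water for 10 days to induce YAP, stands on WT and YAP samples alike. By this label both genotypes received it, though its wording speaks of inducing YAP. Neither the promoter or cell type that drives the transgene nor the age and sex of the mice is given in the sources used here. Chromatin from bulk liver was immunoprecipitated for H3K4me2, H3K4me1 (the di- and monomethylated forms of histone H3 lysine 4) and LSD1, the demethylase that acts on both.

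Each antibody had 2 libraries per genotype, which the authors reduced to a single list of enriched regions, so there are 6 lists from 12 of the 14 libraries. No spread between replicates can be had from them, so no test is given, and read depth is unknown. The labels do not say whether the libraries of a group came from separate animals. Differences below compare list entries, and a region missing from a list may have missed a threshold rather than lack the mark. The YAP and WT lists hold 51676 and 54219 H3K4me2 regions, 6274 and 5905 H3K4me1 regions, and, with overlapping entries merged, 2949 and 1500 LSD1 regions.

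Cholangiocytes, the epithelial cells of bile ducts, and the liver progenitor cells that resemble them share a set of markers. Mature hepatocytes carry some of these at low levels. This does not hold for every gene examined here, as Onecut1 is also a factor of hepatocytes. YAP is the co-activator that the Hippo pathway restrains. In adult mouse liver, YAP activity is known to bring hepatocytes toward this biliary and progenitor state, with SOX9 and osteopontin among the proteins used to follow it. H3K4me2 marks promoters and enhancers, with broad coverage around the starts of active or poised genes.

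At Spp1, Anxa2 and Prom1 the stretch just before the outermost listed RefSeq start was covered by H3K4me2 over its whole length in YAP livers. It had no covered base in WT livers. RefSeq (GRCm38.p6, the coordinates of mm10) gave 8 start entries for 6 of the 9 genes, Spp1, Anxa2, Prom1, Epcam, Tm4sf4 and Onecut1. The 250 bases before the outermost start are printed for Spp1 and Anxa2, whose listing differed, and for Epcam and Tm4sf4, where part of the window was covered in both genotypes. Capitals mark matches to the motif letters searched on both strands, which were GGAATG (TEAD), ATTGAT (ONECUT), ACAAAG (SOX) and TGANTCA (AP-1).
Spp1 (chr5:104434861-104435110, plus strand): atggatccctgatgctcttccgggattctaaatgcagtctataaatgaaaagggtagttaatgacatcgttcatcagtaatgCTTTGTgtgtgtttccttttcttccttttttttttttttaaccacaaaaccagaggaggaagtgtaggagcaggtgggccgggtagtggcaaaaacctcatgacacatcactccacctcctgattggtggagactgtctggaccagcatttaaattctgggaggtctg
Anxa2 (chr9:69453433-69453682, plus strand): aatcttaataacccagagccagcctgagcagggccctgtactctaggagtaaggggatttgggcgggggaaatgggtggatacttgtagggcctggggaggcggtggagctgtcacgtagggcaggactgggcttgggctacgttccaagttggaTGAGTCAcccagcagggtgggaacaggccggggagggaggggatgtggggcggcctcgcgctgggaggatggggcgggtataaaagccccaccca
Epcam (chr17:87635729-87635978, plus strand): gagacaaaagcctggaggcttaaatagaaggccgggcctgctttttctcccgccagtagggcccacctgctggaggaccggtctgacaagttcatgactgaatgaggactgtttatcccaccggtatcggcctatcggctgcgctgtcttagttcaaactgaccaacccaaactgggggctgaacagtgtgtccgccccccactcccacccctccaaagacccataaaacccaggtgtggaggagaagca
Tm4sf4 (chr3:57425160-57425409, plus strand): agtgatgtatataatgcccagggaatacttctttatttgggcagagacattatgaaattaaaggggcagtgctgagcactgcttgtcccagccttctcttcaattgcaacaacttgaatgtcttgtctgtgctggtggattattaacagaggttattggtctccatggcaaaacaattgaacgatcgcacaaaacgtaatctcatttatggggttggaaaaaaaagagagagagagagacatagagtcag
For Prom1 the annotated gene bounds reach 44102047, past its outer start entry at 44101736. Its window thus lies before that start but inside the gene, and only the bases around its motif match are shown.
Prom1 (chr5:44101808-44101834, minus strand): cccgtggtccTGACTCAggcaccctta

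Of these 250 bases, H3K4me2 covered 250 in YAP livers and 0 in WT livers at Spp1, at Anxa2 and at the outer start of Prom1. Full coverage in YAP with no base in WT was found at 0.729% of 21263 such windows before starts of protein-coding genes, and the reverse at 0.494%. This comparison was not planned in advance and follows the pattern seen at these genes, so the shares are descriptions only. The inner start entry of Spp1 had the same 250 and 0 bases, while that of Prom1 had none in either list. At Epcam 84 bases were covered in YAP livers and 225 in WT livers. The windows of Tm4sf4 (106 bases in YAP, 96 in WT) and Onecut1 (127 in YAP, 104 in WT) were partly covered in both, with a gap in H3K4me2 just before the start in each genotype.

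The AP-1 letters were found in both Prom1 windows and in that of Anxa2, where the match began 95 bases before the start, and at the outer Prom1 start 88 bases before it. They occur in 6.75% of 32851 promoter windows of this length. The SOX letters were found in both Spp1 windows, beginning 168 bases before the outer start, and occur in 16.5% of all windows. None of the 8 windows held the TEAD or ONECUT letters, which occur in 12.6% and 6.72%, and no 2 matches overlapped. A match describes these letters only and is not a binding site shown by the data.

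**Figure D1:**
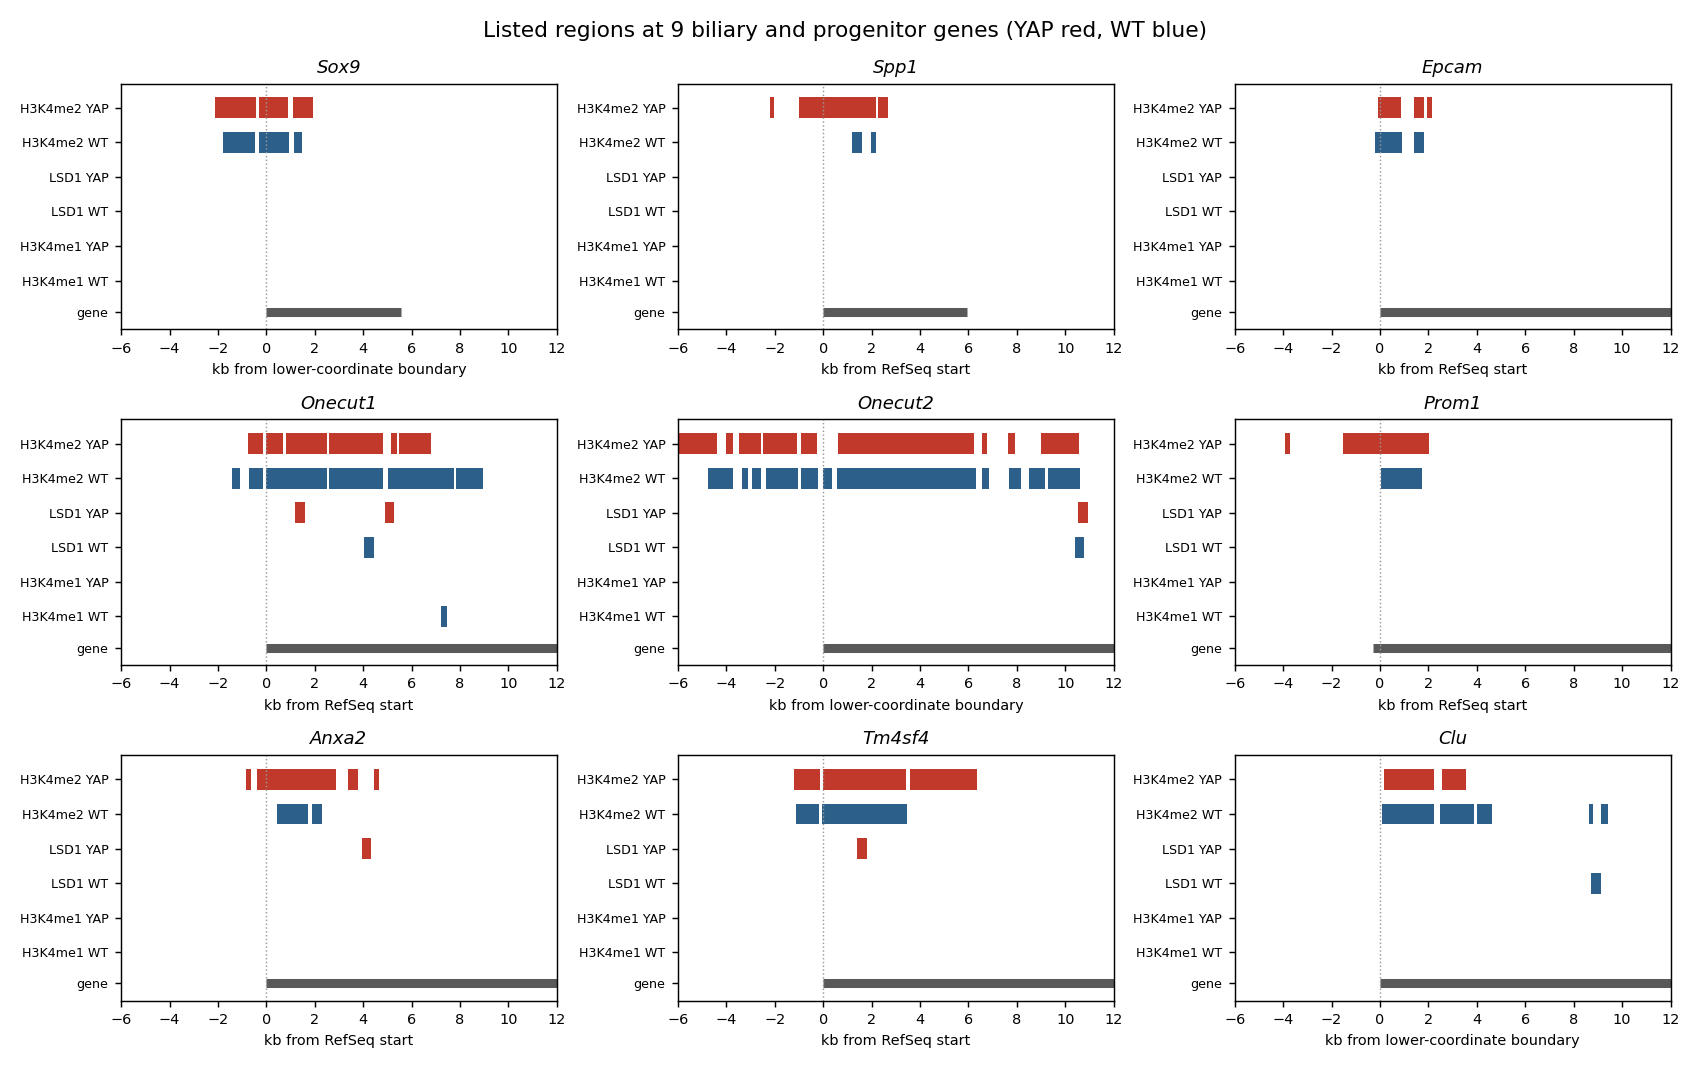
Listed regions at the 9 genes in YAP (red) and WT (blue) livers, by distance in kb from the RefSeq start in the direction of transcription, or from the lower-coordinate boundary for Sox9, Onecut2 and Clu; grey bars are gene bodies. Views show the surroundings of the start, so the LSD1 site near the far end of Prom1 and its short H3K4me2 region deep inside the gene lie outside. At Spp1, Anxa2 and Prom1 the WT H3K4me2 regions begin after the start and the YAP regions span it.

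In H3K4me2-covered bases, 3 of the 9 genes were more than 2-fold higher in YAP livers, 5 had more bases in all and 4 had fewer, with none more than 2-fold lower. Folds were taken on the log2 scale after adding 500 bases to both values. Among 14035 protein-coding genes with H3K4me2 in both lists, 1.49% were past 2-fold higher and 1.44% past 2-fold lower, 39.4% had more bases in YAP and 60.6% had fewer. The median log2 of YAP over WT was 0.32 for the 9 genes and -0.07 for those genes. Summed over the 9 genes, 45.9 kb were covered in YAP livers and 39.6 kb in WT livers. In bulk liver, more cells of a type and more H3K4me2 per cell cannot be told apart.

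The calls at Prom1 and Anxa2 depend on the setting. Without the 5 kb flanks the log2 value was 1.46 at Spp1, 0.84 at Anxa2 and 0.50 at Prom1, so that 1 gene remained past 2-fold. Spp1 stayed past it in all 8 settings, with values between 1.11 and 2.88. The values just inside the threshold were 1.04 at Prom1 and 1.05 at Anxa2, and the next below it was 0.66 at Tm4sf4.

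**Figure D2:**
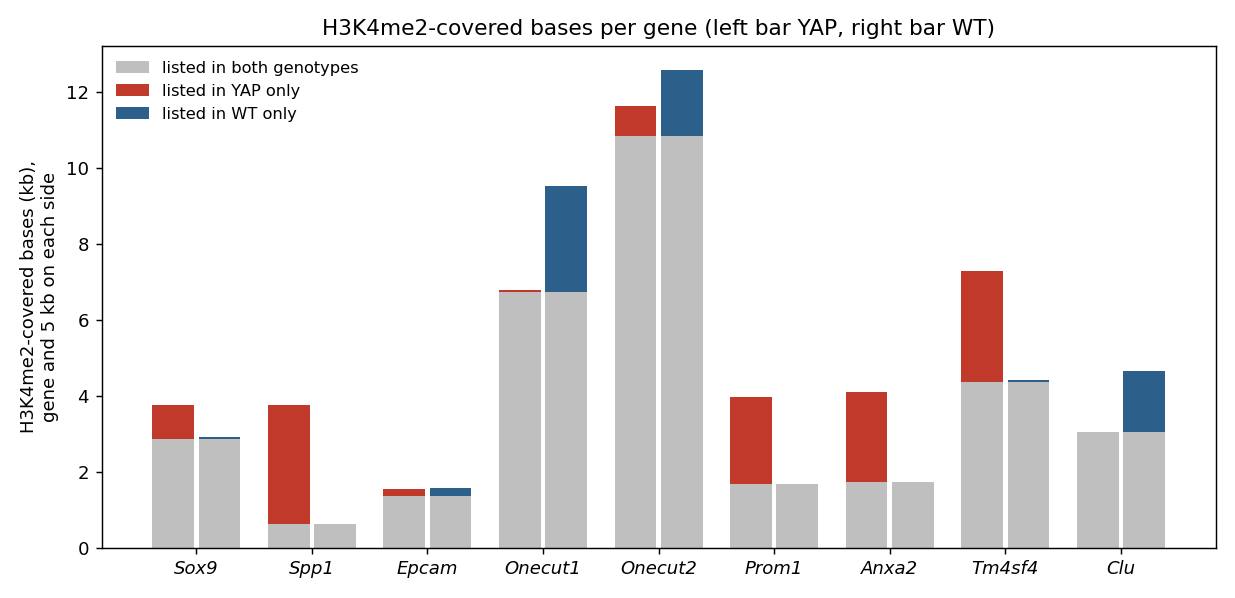
H3K4me2-covered bases in kb over each gene and 5 kb on each side, left bar YAP and right bar WT, split into bases listed in both genotypes (grey) and in 1 genotype only (colour). Spp1 has 3.75 kb in YAP and 0.619 kb in WT, and at Spp1, Prom1 and Anxa2 no base is listed in WT only.

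Spp1, which encodes the secreted phosphoprotein osteopontin, had the widest gap of the 9 genes (chromosome 5, 104435111 to 104441053). H3K4me2 covered 3.75 kb in YAP livers, against 0.619 kb in WT livers, a log2 difference of 1.92. The main YAP region was 3176 bp long and ran from 987 bases before the start to 2188 bases after it. WT livers had regions of 439 and 180 bp at the same place, both after the start, with authors' scores of 64 and 26, and the long YAP region scored 202 in its own list. Every base listed in WT was also listed in YAP. In the higher-scoring 50% of each list Spp1 kept 3.18 kb in YAP livers and was listed at 0 in WT livers. No LSD1 or H3K4me1 region lay within 5 kb of the gene in either genotype. The nearest LSD1 region in YAP livers was 19046 bases away with another beside it, both inside Pkd2, the neighbouring polycystin gene, and the nearest in WT livers was 3636 kb away.

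Clu, which encodes the secreted chaperone clusterin and lies on chromosome 14 (65968483 to 65981548), had fewer covered bases in YAP livers. H3K4me2 covered 3.05 kb in YAP livers and 4.64 kb in WT livers, a log2 value of -0.53 that does not reach 2-fold. Both genotypes had long regions near the lower-coordinate boundary, of 2058 and 992 bp in YAP and of 2142 and 1392 bp in WT. WT livers had further regions of 641, 180 and 286 bp deeper in the gene that had no counterpart in YAP livers. The only LSD1 site of the gene was a WT one, 8717 to 9112 bases above that boundary (authors' score 630), where it shared 78 bases with the 180 bp H3K4me2 region. At this place neither LSD1 nor H3K4me2 was listed in YAP livers, whose nearest H3K4me2 region was 5.17 kb away.

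Prom1 encodes prominin-1 (CD133), a pentaspan membrane glycoprotein used to isolate progenitor cells (chromosome 5, 43993621 to 44102047). H3K4me2 covered 3.97 kb in YAP livers and 1.67 kb in WT livers. In YAP livers a region of 3548 bp ran from 1516 bases before the outer start to 2031 bases after it, whereas the WT region of 1670 bp began 45 bases after the start. Of the short YAP-only regions, 1 of 223 bp lay deep inside the gene and 1 of 196 bp lay before it, within the bounds of the long noncoding RNA gene Gm35900. LSD1 was listed in YAP livers only, 103 kb from the start near the other end of the gene (43998250 to 43998649). That site had the lowest authors' score of the YAP sites at the 9 genes, 567, and the nearest H3K4me2 was 16.0 kb from it in YAP livers and 48.7 kb in WT livers.

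Tm4sf4, which encodes a tetraspan membrane protein, had 7.28 kb of H3K4me2 in YAP livers and 4.41 kb in WT livers (chromosome 3, 57425410 to 57441677; log2 0.66). Regions on both sides of its start were nearly the same in both genotypes, 1076 and 3435 bp in YAP against 924 and 3487 bp in WT. Most of the difference came from 1 region of 2769 bp, 3579 to 6347 bases after the start, the longest YAP-only region at the 9 genes. It followed closely on the shared region before it, which ended 3426 bases after the start in YAP livers and 3446 bases after it in WT livers. LSD1 was listed in YAP livers only, at 1392 to 1791 bases after the start (score 612). All 400 bases of that site lay on H3K4me2 in both genotypes.

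Epcam encodes the epithelial cell adhesion molecule, found on cholangiocytes and not on mature hepatocytes. It had the fewest covered bases in YAP livers and hardly differed between genotypes (chromosome 17, 87635979 to 87651127). H3K4me2 covered 1.55 kb in YAP livers and 1.57 kb in WT livers, and 1.36 kb of these were the same bases. The region over the start was 939 bp long in YAP and 1140 bp in WT. Epcam had no LSD1 region, and the nearest was 866 kb away in YAP livers and 809 kb away in WT livers. Its log2 value of -0.02 changed sign with the setting, between -0.19 and 0.32, so no direction is given.

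Anxa2 encodes annexin A2, which binds membranes and actin (chromosome 9, 69453683 to 69491792). H3K4me2 covered 4.09 kb in YAP livers and 1.72 kb in WT livers, and all of the WT bases were also listed in YAP. The main YAP region of 3261 bp began 399 bases before the start, while the first of the WT regions, of 1294 and 429 bp, began 432 bases after it. Short regions of 202, 439 and 187 bp were listed in YAP livers only. LSD1 was listed in YAP livers only, at 3939 to 4338 bases after the start (score 624). It sat in the gap between the last YAP regions, 116 bases from the nearest, and 1.64 kb from the nearest WT region.

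Among the transcription factor genes, Sox9, a regulator of bile duct development, had 3.75 kb of H3K4me2 in YAP livers and 2.90 kb in WT livers (chromosome 11, 112782210 to 112787757; log2 0.32). Each genotype had 3 regions in the same places around the lower-coordinate boundary, and 98.8% of the WT bases were shared. The YAP list carried the longer first and last region, 1688 and 857 bp against 1316 and 345 bp, while the middle region was 1209 bp in YAP and 1241 bp in WT. No LSD1 region lay within 5 kb of Sox9, and the nearest was 49.6 kb away in YAP livers and 2625 kb away in WT livers.

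Onecut1 (HNF6) is a homeobox factor of hepatocytes and of the developing bile ducts. It had 6.79 kb of H3K4me2 in YAP livers and 9.51 kb in WT livers (chromosome 9, 74861921 to 74889648; log2 -0.46). The WT list extended further into the gene, with a region of 2721 bp from 5012 to 7732 bases after the start and another of 1129 bp beyond it. The YAP list ended 6785 bases after the start. All of these regions overlap the long noncoding RNA genes Gm33562 or Gm38678 as well, and the lists do not say to which gene they belong. LSD1 was listed in both genotypes at different places, 1201 to 1600 and 4889 to 5288 bases after the start in YAP livers and 4039 to 4434 bases after it in WT livers. The nearest YAP and WT sites were 454 bases apart, and all 3 sites touched H3K4me2.

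Onecut2, a paralog of Onecut1, carried the most H3K4me2 of the 9 genes, 11.6 kb in YAP livers and 12.6 kb in WT livers (chromosome 18, 64340032 to 64398488). Of these bases 10.8 kb were shared, and a long region of 5633 bp in YAP and 5731 bp in WT lay over the first part of the gene. A region of 353 bp at the lower-coordinate boundary itself was listed in WT only. The LSD1 site of Onecut2 was the only site at the 9 genes found in both lists. It lay 10527 to 10926 bases above the boundary in YAP livers and 10396 to 10791 bases above it in WT livers, with 265 bases in common.

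**Figure D3:**
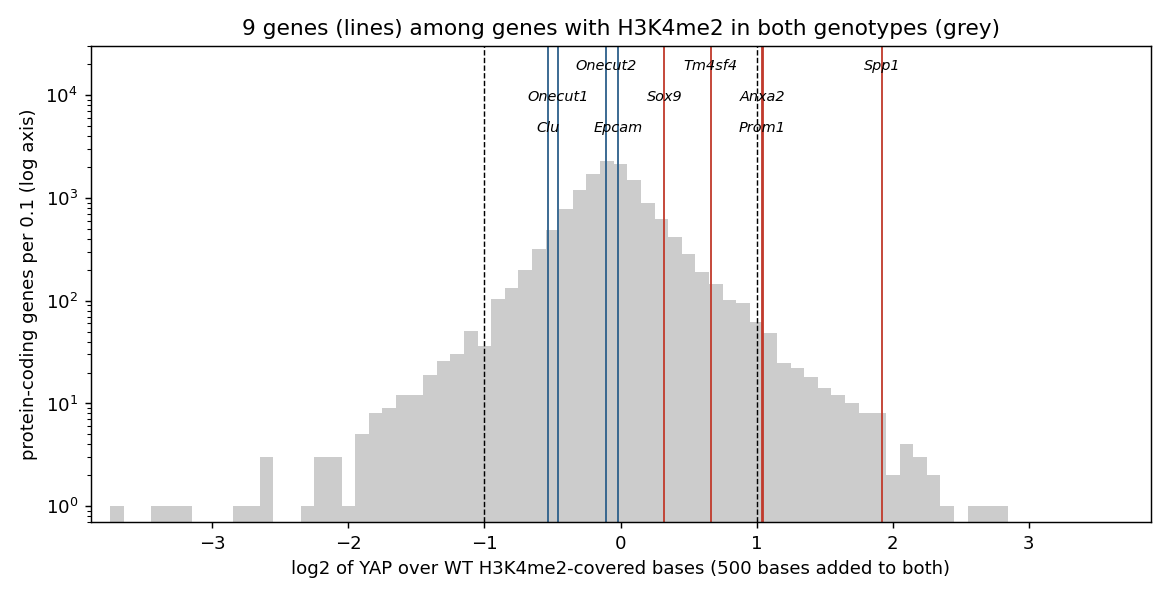
Log2 of YAP over WT H3K4me2-covered bases (500 added to both) for the 9 genes (red and blue lines) and for 14035 protein-coding genes with H3K4me2 in both lists (grey bars, log axis; 5% lie below -0.64 and 5% above 0.58). Spp1 lies at 1.92, Prom1 and Anxa2 lie just past the dashed 2-fold line, and Clu and Onecut1 lie at -0.53 and -0.46.

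Taken region by region, 9 of the 36 H3K4me2 regions at these genes in YAP livers had no overlap in WT, and 6 of the 34 in WT livers had none in YAP. These are 25% (Wilson 95% interval 13.8% to 41.1%) and 17.6% (8.35% to 33.5%), where all regions of the lists gave 21.6% and 26.4%. The intervals cover counting error only, and regions of 1 gene are not independent of each other. YAP-only regions had a median length of 202 bp and WT-only regions of 352 bp. Regions found in both genotypes had medians of 1209 bp in YAP and 1088 bp in WT. All listed H3K4me2 regions had medians of 575 bp in YAP and 571 bp in WT, not split by overlap. At Spp1, Prom1 and Anxa2 most of the added bases came from 1 long region each at a shared place (3176, 3548 and 3261 bp). Their YAP-only regions were short, from 182 to 439 bp.

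LSD1 was listed at 5 of the 9 genes in YAP livers and at 3 in WT livers (11.1% and 5.9% of all protein-coding genes). Prom1, Anxa2 and Tm4sf4 had it in YAP livers only (3 genes), Clu in WT livers only (1 gene), and Onecut1 and Onecut2 in both (2 genes). Among all protein-coding genes, LSD1 was in YAP only at 8.08%, at 2.86% it was in WT only, and 3.05% had it in both lists. Of those with H3K4me2 in both lists, as all 9 genes have, the shares were 12.3%, 4.38% and 4.71%. When the YAP list was shortened to its top entries, as many as the WT list holds, 0 of the 9 genes had LSD1 in YAP only and 2, Clu and Onecut2, had it in WT only. By score the Anxa2, Tm4sf4 and Prom1 sites stood 77.5%, 80.5% and 92.2% of the way down the YAP list.

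By the authors' score, whose definition is not given, 5 of the 6 YAP sites were below the median of their list (762) and all 3 WT sites below theirs (719). The exception was the Onecut1 site 1201 to 1600 bases after the start, with 824. Of the YAP sites 4 of 6 touched YAP H3K4me2, and all 3 WT sites touched WT H3K4me2, against 64.9% and 72.3% of all merged LSD1 regions. Site by site, 5 of the 6 YAP sites and 2 of the 3 WT sites had no overlap in the other list, where 82.8% and 66.2% of all merged regions had none. No site at the 9 genes spanned a RefSeq start or the boundary used in its place.

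**Figure D4:**
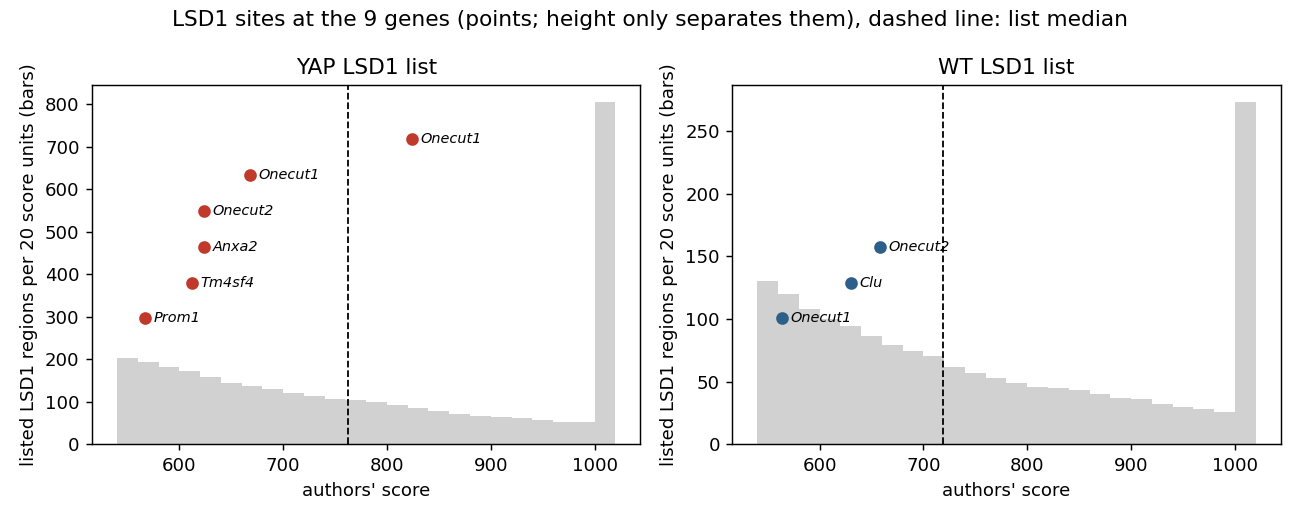
Authors' scores of the 6 YAP and 3 WT LSD1 sites at the 9 genes (points; their height has no meaning) over the scores of all listed LSD1 regions (grey bars); dashed lines are list medians. All points except 1 Onecut1 site lie below the median of their list.

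At the 4 genes with LSD1 in 1 genotype only, H3K4me2 covered more bases in that same genotype. Prom1, Anxa2 and Tm4sf4 had both in YAP livers, and Clu had both in WT livers. This counts whole genes and not the sites. The Prom1 and Anxa2 sites lay on no listed H3K4me2, and the Tm4sf4 site lay on H3K4me2 of both genotypes. Only the Clu site lay on H3K4me2 listed in its own genotype alone. With lists of equal number, Prom1, Anxa2 and Tm4sf4 had no LSD1 site in YAP livers, while Clu kept its WT site. Over all genes with H3K4me2 in both lists, 39.5% of the 1720 with LSD1 in YAP only had more H3K4me2 bases in YAP, close to the 40.2% of the 11039 genes without LSD1. Of the 615 genes with LSD1 in WT only, 69.6% had fewer H3K4me2 bases in YAP, compared with 66.4% of the 661 genes with LSD1 in both genotypes and 59.8% of the genes without LSD1. These shares are descriptions, and the 4 genes are too few to be set against them.

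H3K4me1 was listed at 1 of the 9 genes, a WT-only region of 269 bp in Onecut1, 7204 to 7472 bases after the start and overlapping a WT H3K4me2 region. With 500 bases added, 269 bases against 0 cannot reach 2-fold, and the other 8 genes had no H3K4me1 to compare. That 0 of the 9 genes were past 2-fold was therefore fixed by the measure. Of all genes with any H3K4me1, 13.7% were past 2-fold higher in YAP and 8.58% past 2-fold lower, but only 1 of the 9 genes belongs to these. H3K4me1 was in either list at 14.5% of all protein-coding genes and in WT only at 3.17%. Outside the windows, the nearest YAP region lay between 77.2 kb (Onecut1) and 946 kb (Sox9) from the gene. In WT livers the nearest lay just past the 5 kb limit at Onecut2 (5.38 kb) and up to 843 kb away at Prom1.

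A wider list of 48 biliary and progenitor genes, without the 9, was described in the same way. H3K4me2 was found at 36 of them, with more bases in YAP at 23 and fewer at 13. Of all protein-coding genes 68.1% had H3K4me2, and 40.8% of these had more bases in YAP and 59.1% fewer. The median log2 was 0.19 for the 36 genes, and -0.06 for the 14915 genes with any covered base. Past 2-fold higher in YAP livers were 4 genes (11.1% of the 36, where the share of all such genes was 3.34%), and 1 was past 2-fold lower (background 2.25%). The higher ones were Grhl2, an epithelial transcription factor gene (1.54 kb in YAP, listed at 0 in WT), Bicc1, which encodes an RNA-binding protein (8.30 and 2.98 kb), Cldn7, a claudin gene (1.66 and 0.498 kb), and Cdh6, a cadherin gene (1.74 and 0.598 kb). Aqp1, the water channel gene, was the lower one, with 0.375 kb in YAP livers and 1.45 kb in WT livers. Grhl2 passed only through its bases in YAP, so its direction was fixed by its absence in WT. The keratin genes Krt7 and Krt19, defining markers of bile duct cells, had no H3K4me2 base in either list and are among the 12 genes without any (31.9% of all genes have none).

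LSD1 was listed in YAP livers only at 6 genes of the wider list, or 12.5% of 48 (background 8.08%). Among these were Bicc1, Notch2, a Notch receptor gene, Pkd2, the anion exchanger gene Slc4a2, and Tm4sf1, a relative of Tm4sf4. It was listed in WT livers only at Dcdc2a (background 2.86%) and in both genotypes at Pkhd1, which encodes fibrocystin, and Anxa5. Of these named genes with LSD1 in YAP only, Bicc1, Notch2 and Pkd2 had more H3K4me2 bases in YAP livers, and Slc4a2 and Tm4sf1 had fewer.

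H3K4me1 was listed at 10 of the 48 genes of the wider list (14.5% of all protein-coding genes have it), with more bases in YAP livers at 9 and fewer at 1, while 56.2% of all genes with H3K4me1 had more in YAP and 43.8% had fewer. Past 2-fold higher in YAP were 5 of the 10, where 13.7% of all genes with H3K4me1 were. Notch2 had 3969 bases in YAP livers and 730 in WT livers. Jag1, the gene of a Notch ligand, had 1005 bases in YAP livers, and Bicc1 and Anxa5 had 1693 and 1498, with none listed in WT livers at any of the 3. The fifth was Cdh1, the E-cadherin gene, with 589 bases in YAP livers and none listed in WT livers. Tm4sf1 was the exception, with none listed in YAP and 175 bases in WT. In all, 7 of the 10 were listed in YAP only, so their direction was fixed by their absence in WT.

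**Figure D5:**
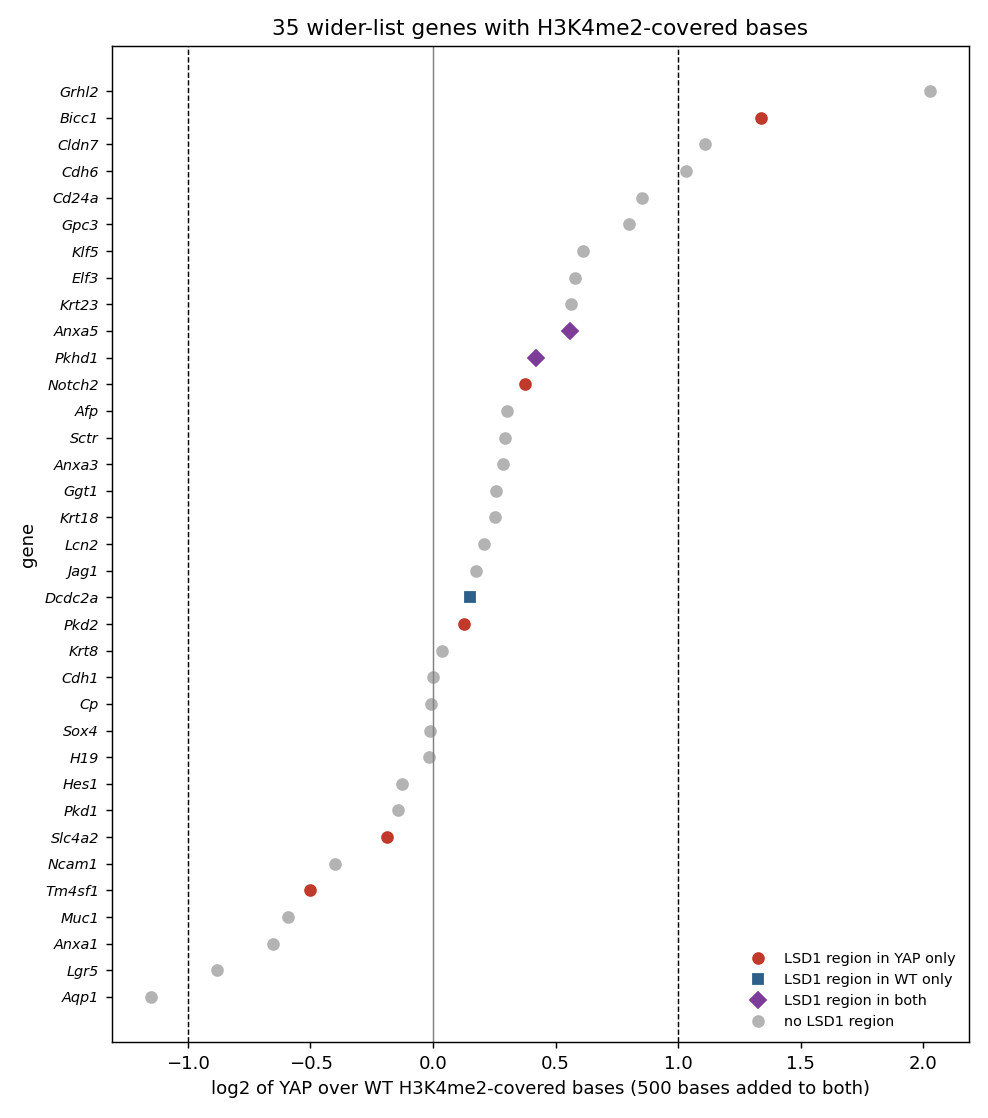
Log2 of YAP over WT H3K4me2-covered bases for 35 of the 36 genes of the wider list with any covered base, coloured by LSD1. Grhl2 (2.03), Bicc1, Cldn7 and Cdh6 lie beyond the upper dashed 2-fold line and Aqp1 (-1.15) beyond the lower one.

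Markers of other liver cells differed between the lists too, and their part in the values above was not tested. Beside their counts stand the shares of all genes with H3K4me2, 59.1% with fewer bases in YAP and 40.8% with more. Of 19 hepatocyte markers, all with H3K4me2, 18 had fewer bases in YAP livers, and their sum was 123 kb in YAP and 175 kb in WT. The windows of Apoa1 and Apoc3 overlap, as do those of Fga and Fgb. Bases listed in an overlap count for both genes, so these markers are not all separate. Cyp2e1, a drug-metabolising cytochrome gene, had none listed in YAP and 8.14 kb in WT, and Alb, the albumin gene, had 5.56 kb in YAP and 6.45 kb in WT. Of 10 macrophage markers 7 had H3K4me2, all with more bases in YAP livers (15.0 kb in YAP and 5.15 kb in WT in sum), although 5 of these were listed at 0 in WT. Vsig4, Marco and Lyz2 were at 0 in both lists. Of 10 endothelial markers 7 had more and 2 fewer bases (11.1 kb in YAP, 12.6 kb in WT). Of 10 stellate cell and fibroblast markers 2 had more and 5 fewer (4.74 and 12.7 kb), and of 10 lymphocyte markers 3 had more and 2 fewer (10.0 and 7.77 kb). Among these, 3 endothelial, 1 stellate or fibroblast and 1 lymphocyte marker were listed in YAP only. In WT only were 1 endothelial and 3 stellate or fibroblast markers. Absence from the other list fixed the direction of each.

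For likeness over the 6 lists, each gene was set beside all other protein-coding genes by the Euclidean distance of log2 covered bases plus 500. Closest genes were to be named only for the genes with the most covered bases over the 6 lists. The closest was 2900026A02Rik for Onecut2 (distance 0.13) and Igfbp7 for Tm4sf4 (0.09). The H3K4me2 of 2900026A02Rik covered 12.2 kb in YAP livers and 13.6 kb in WT livers with LSD1 in both, and that of Igfbp7 covered 6.93 kb in YAP livers and 4.62 kb in WT livers with LSD1 in YAP only. Rrm2, named after its values were seen, was the closest to both Prom1 (0.02) and Anxa2 (0.06). Its H3K4me2 covered 3.92 kb in YAP livers and 1.68 kb in WT livers, with LSD1 in YAP only. A listing much like that of Prom1 and Anxa2 thus also occurred outside the biliary and progenitor lists. This likeness concerns listed bases alone.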

How the data were processed

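Of 14 libraries, the 12 antibody libraries were represented by 6 region lists, grouped by antibody and genotype from the labels; the 2 input libraries were not analysed here. The submitters' processing notes name deepTools 3.3.0, bedtools 2.26.0, Picard 1.126, SAMtools 1.7, BWA and Trimmomatic 0.39, with mm10 as the genome build. Which peak caller and threshold made the lists, how inputs were used and how replicates were combined is not given in the sources used here. The labels' protocols give micrococcal nuclease digestion, so region edges can follow nucleosome positions.

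The score of each region was deposited by the authors and used only within a list; in the histone lists it is 10 times −log10 of the deposited p-value without decimals, and for LSD1 its definition is not stated. The deposited fold enrichment (ratio) served to break ties of score. The p-value columns themselves were not used.

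Overlapping regions of a list were merged, which left 2949 of 3353 YAP and 1500 of 1718 WT LSD1 entries, and bases were counted within each gene and 5 kb on each side, using the RefSeq gene table of GRCm38.p6. A region was in both genotypes with at least 1 bp of overlap. Counting was checked on simulated regions against bedtools 2.31.1; Python 3.11.15, numpy 2.4.6, pandas 2.3.3, scipy 1.17.1 and matplotlib 3.10.9 were used. Alternatives were no flank, 20 kb flanks, the higher-scoring 50% of each list, lists of equal number, 100 or 2000 bases added, joining within 1 kb, and overlap by 50% or within 1 kb. Of the wider list, genes past 2-fold or with LSD1 in 1 genotype only are named, with others chosen after their values were seen. Results that need certain genes are not reported here. The members, lists and settings were chosen with earlier results of these data known.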

Additional observations from a re-analysis of the deposited data

How the results depend on the processing

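The count of genes past 2-fold higher in H3K4me2 was 3 of the 9 as reported, and 1 without flanks and with 2000 bases added (Spp1 in both). It was 2 with flanks of 20 kb (Spp1 and Prom1) and 2 in the higher-scoring 50% of each list (Spp1 and Anxa2). LSD1 was in YAP only at 3 genes, at 1 (Onecut1) in the higher-scoring 50% of each list and at 0 with lists of equal number, and in WT only at 1, 0 and 2 genes in these settings. YAP-only H3K4me2 regions at the 9 genes numbered 9, 2 in the higher-scoring 50% and 19 with a reciprocal overlap of 50%, and WT-only regions 6, 1 and 18, or 3 when a gap of up to 1 kb counted as overlap. For H3K4me1, 1 gene in place of 0 was past 2-fold lower in YAP with 100 bases added (Onecut1) and with flanks of 20 kb (Onecut2, through a WT region just outside the 5 kb window). In the wider list, genes past 2-fold higher in H3K4me2 numbered 1 in place of 4 with 2000 bases added. Genes past 2-fold lower numbered 1 as reported, 2 without flanks and with 100 bases added, 3 in the higher-scoring 50%, and 0 with 20 kb flanks and with 2000 bases added. LSD1 in WT only there was 1, 2 with 20 kb flanks and 0 in the higher-scoring 50%. The cause of these changes was not tested. Of 63 recomputed log2 values of H3K4me2 at the 9 genes, 57 stayed on their side of 2-fold and 6, all of Anxa2 and Prom1, dropped below it. The 57 include every value of the genes that were not past 2-fold as reported. Sox9, Spp1, Prom1, Anxa2 and Tm4sf4 were above 0, and Onecut1, Onecut2 and Clu below 0, in each of the 8 settings. No paired analysis was possible because each list stands for both replicates, and for the same reason no replicate could be left out. Read depth is not known, so an unlisted region may lie below a threshold.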

Other observations

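Counted over the hepatocyte markers as a set, H3K4me2 and H3K4me1 leaned in opposite directions. Of the 19 genes, 18 had fewer H3K4me2-covered bases in YAP livers, whereas H3K4me1 was listed at 7 of them and covered more bases in YAP livers at all 7 (2.41 kb in YAP and 0.564 kb in WT in sum). Over all genes the marks also leaned in opposite directions, with fewer bases in YAP livers at 59.1% of the genes with H3K4me2 and more at 56.2% of those with H3K4me1. H3K4me1 was listed at 14.5% of all protein-coding genes. Ahsg, which encodes the plasma protein fetuin-A, had 624 H3K4me1 bases in YAP livers and 215 in WT livers, and Ttr, the transthyretin gene, had 417 and 349. The other 5, Trf, Cebpa, Cyp7a1, Fga and Apoa2, were listed in YAP only, which fixed their direction, and none of the 7 was past 2-fold. Trf had more bases of both marks in YAP livers, with 12.5 kb of H3K4me2 in YAP and 8.83 kb in WT. These genes were chosen after their values were seen, and no test was made.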
